A study of Mus musculus with 8 samples.

Results

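The genes examined were 10 mast cell proteases and markers of 27659 gene names on the array, the chymases Cma1, Mcpt1, Mcpt2 and Mcpt4, the related protease gene Mcpt8, the tryptases Tpsb2 and Tpsab1, the carboxypeptidase gene Cpa3, the histidine decarboxylase gene Hdc and the IgE receptor subunit gene Ms4a2. Every probe named for one of them in the scanner files was taken, old names included (Tpsb2 is listed there as Mcpt6), which gave 12 of the 41127 probes with a value on all arrays, at least 1 for each of the 10 genes. The RNA came from the back skin of 19-week-old male mice of the hairless strain SKH-1, whose backs had all been irradiated with UVB for 10 weeks. From 1 week after the last irradiation, 4 mice received 100 µl of 1% w/v enalapril maleate in 30 vol % ethanol on the back 5 times a week for 2 weeks, and 4 mice received the 30 vol % ethanol alone as vehicle. Enalapril inhibits angiotensin-converting enzyme (ACE), and there was no unirradiated group among these arrays. Each mouse had 1 Agilent 1-colour array. The series text speaks of treatment for 2 or 6 weeks and of 6 mice a group, while the labels of these 8 arrays give 2 weeks.

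Mast cells sit in the dermis around vessels, nerves and hair follicles and store proteases in granules bound to heparin, together with histamine. Chymases typically cut after aromatic residues, and mast cell chymase can release angiotensin II from angiotensin I without ACE. It is therefore known as an alternative source of that peptide in tissues where ACE is inhibited. Which of these mouse proteases do so in skin was not tested. In the mouse, mast cells of connective tissue such as skin carry the proteases of Mcpt4, Cma1, Tpsb2, Tpsab1 and Cpa3, while those of mucosal linings carry the proteases of Mcpt1 and Mcpt2. Mcpt8 marks basophils in the mouse. The chymase genes Cma1, Mcpt1, Mcpt2 and Mcpt4 and the related gene Mcpt8 lie close together on chromosome 14. The tryptase genes Tpsb2 and Tpsab1 lie on chromosome 17.

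The arrays differed in ways that follow the groups. Slide 2 and scan 2 held the 4 enalapril arrays, slide 1 and scan 1 the 4 vehicle arrays, and their effects cannot be told apart from that of the treatment. The median local background ran from 48 to 52 on the enalapril arrays and from 57.5 to 66 on the vehicle arrays. What this did to the values of dim probes was not tested. The share of spots well above background ran from 67.1% to 72.7%, and there were no saturated probes. Of 28586 probes tested, 2981 passed the test below, 1091 higher and 1890 lower in enalapril. Without enalapril 4, 6994 passed, and without any other array between 396 and 1721. Marker genes of fat cells and skeletal muscle were lower in enalapril skin, with 4 of 6 adipocyte markers and 4 of 6 muscle markers called lower. The summed level of the adipocyte markers ran from 40.7 to 55.6 in enalapril and from 66.2 to 72.3 in vehicle, in units of each array's 75th percentile. The summed level of the muscle markers ran from 297.8 to 376.1 in enalapril and from 432 to 604.8 in vehicle. Their part in the values below was not tested. Fewer cells of a type and less RNA per cell cannot be told apart in whole skin.

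Upstream sequence is shown for 4 of the protease genes because the data divide them: Cma1, Mcpt4 and Cpa3 shared one pattern over the 8 mice, while Mcpt1, a close relative of Mcpt4, was detected in a single mouse. Each is the run of 250 bases before the transcript start that the sequence table uses, from RefSeq on GRCm38.p6, read 5′ to 3′ on the gene's strand. For Cpa3 that start lies inside the annotated span of the gene, so the end of its stretch does too. They are chr14:55944676-55944925 on the minus strand for Cma1, chr14:56062311-56062560 on the minus strand for Mcpt4, chr14:56017714-56017963 on the plus strand for Mcpt1 and chr3:20242182-20242431 on the minus strand for Cpa3. Of the 10 genes, 7 had an entry in the sequence table. Capitals mark the letters GATA on either strand, the core of the site of the GATA factors, which are needed for mast cell development.
Cma1: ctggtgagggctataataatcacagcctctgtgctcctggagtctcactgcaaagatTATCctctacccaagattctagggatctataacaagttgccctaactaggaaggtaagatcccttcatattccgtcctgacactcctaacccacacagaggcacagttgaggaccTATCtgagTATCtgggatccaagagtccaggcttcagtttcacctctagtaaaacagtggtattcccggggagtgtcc
Mcpt4: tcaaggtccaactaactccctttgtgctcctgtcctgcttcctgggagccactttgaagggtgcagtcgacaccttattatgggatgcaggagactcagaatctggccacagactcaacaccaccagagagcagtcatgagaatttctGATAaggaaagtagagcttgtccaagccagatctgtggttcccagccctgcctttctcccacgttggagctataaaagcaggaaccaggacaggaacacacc
Mcpt1: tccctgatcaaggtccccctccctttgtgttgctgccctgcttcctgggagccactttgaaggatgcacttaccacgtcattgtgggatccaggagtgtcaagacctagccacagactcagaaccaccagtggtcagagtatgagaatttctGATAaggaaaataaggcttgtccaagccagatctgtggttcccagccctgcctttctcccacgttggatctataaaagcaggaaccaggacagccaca
Cpa3: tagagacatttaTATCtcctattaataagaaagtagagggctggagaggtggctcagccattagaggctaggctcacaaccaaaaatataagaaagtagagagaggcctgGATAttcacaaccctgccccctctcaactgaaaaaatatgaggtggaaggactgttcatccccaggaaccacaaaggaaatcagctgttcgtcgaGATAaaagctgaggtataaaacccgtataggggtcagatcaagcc
The stretch held 3 GATA matches in Cma1, 1 in Mcpt4, 1 in Mcpt1 and 3 in Cpa3. At least 1 match is common, being present in 53.6% of the 32851 promoters of the same length in the table. The TATA letters TATAAA, searched on both strands and present in 12.4% of promoters, were found in Mcpt4, Mcpt1 and Cpa3 and were not in the Cma1 window. On the gene's own strand they began 32, 28 and 31 bases before that start. Cpa3 held 2 matches, the other on the opposite strand near the far end of the stretch. In global alignments the upstream stretches of Mcpt4 and Mcpt1 were identical at 81.0% of 258 aligned positions, while Cma1 and Mcpt4 were identical at 49.3% of 286, and all pairs of the 7 genes other than Mcpt4 with Mcpt1 lay between 41.7% and 51.2%. A match of letters is a description of the sequence and says nothing of binding.

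Skin of both groups carried the connective tissue type of mast cell transcript. Each of Cma1, Mcpt4, Tpsb2, Tpsab1, Cpa3, Hdc and Ms4a2, and the stem cell factor receptor gene Kit, was well above background on all 8 arrays. The mucosal type was not seen except in 1 mouse. None of the 10 probes that could be tested, from 8 genes, differed between enalapril and vehicle by limma's moderated test with Benjamini-Hochberg adjustment over all 28586 probes, where 10.4% of all tested probes passed (3.82% higher, 6.61% lower). At an unadjusted p under 0.05 the count was also 0 of 10, against 29.4% of all tested probes. The groups overlapped for all 10 probes, whereas they did not overlap for 20.2% of all tested probes. Of the 10 log2 differences 9 were below 0, where the median over all tested probes was −0.05. The 10 probes are not independent, since Cma1 and Mcpt4 count more than once and several probes varied together. Some of the signs also turned in other fits, so the count does not show a joint fall. The number of arrays limits these results, since the 95% intervals given below still reach changes of over 1 log2 unit for some probes.

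**Figure D1:**
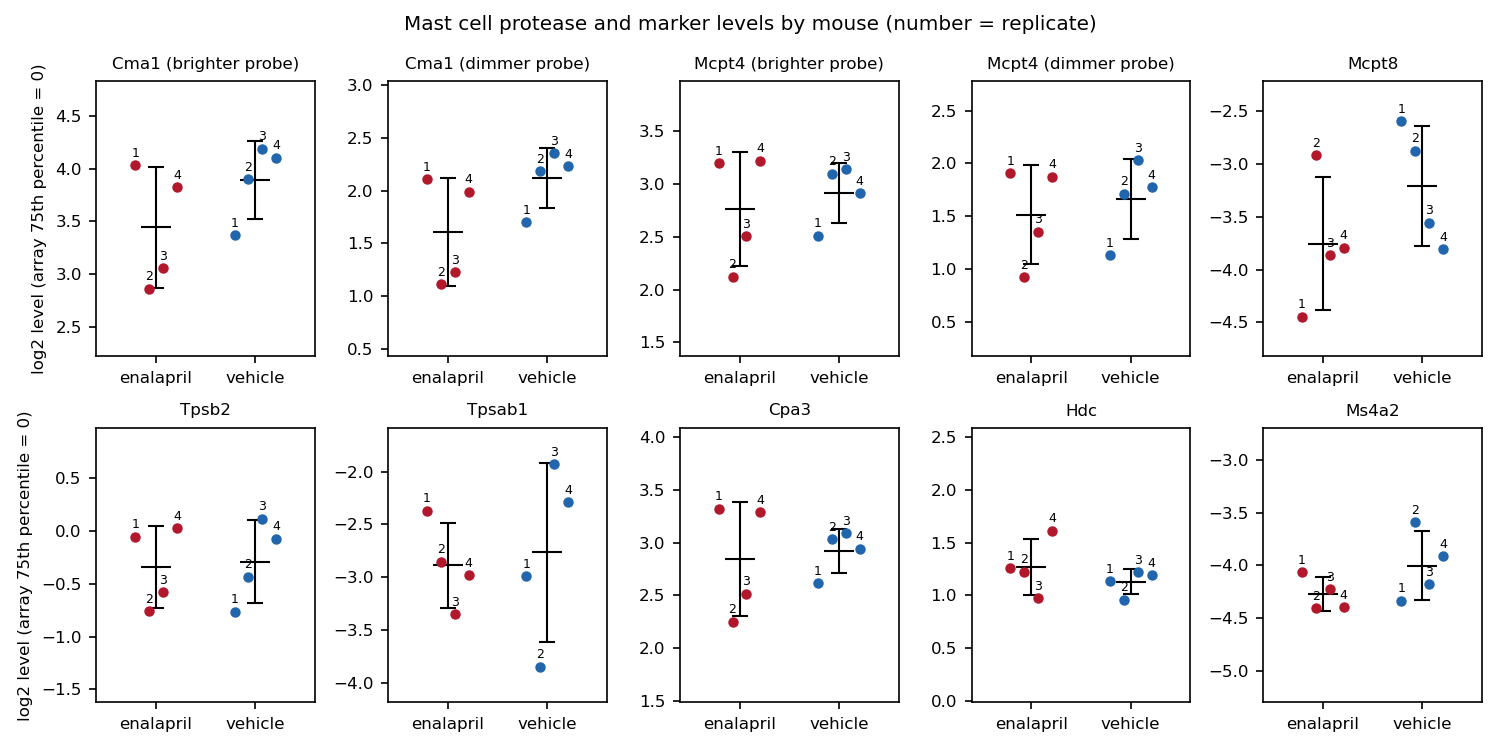
Log2 level of each tested probe in every mouse, with 0 at the array's 75th percentile; each panel spans the same number of log2 units, dots are mice numbered by replicate, and bars are the mean ± SD of 4. The enalapril and vehicle dots overlap in every panel, and enalapril 2 and 3 and vehicle 1 sit low for Cma1, Mcpt4, Tpsb2 and Cpa3.

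Among the chymases, Cma1 encodes the protease mMCP-5, the mouse gene closest in sequence to human chymase. Its brighter probe read 4.03, 2.86, 3.06 and 3.82 in enalapril mice 1 to 4, and 3.37, 3.90, 4.19 and 4.10 in vehicle mice 1 to 4, as log2 levels relative to the array's 75th percentile. Enalapril 2 and 3 were the lowest of all 8 mice, while enalapril 1 and 4 lay within the range of the vehicle mice. The mean was 3.44 ± 0.57 in enalapril and 3.89 ± 0.37 in vehicle (SD, n = 4 each), a difference of −0.45 ± 0.29 (SE; 95% interval −1.12 to 0.22), which did not pass limma's test (adjusted p = 0.345) and was −0.25 without enalapril 2. The dimmer Cma1 probe gave 2.11, 1.11, 1.22 and 1.99 in enalapril and 1.70, 2.18, 2.35 and 2.23 in vehicle. Its difference of −0.51 ± 0.26 (95% interval −1.10 to 0.08) did not pass either (limma adjusted p = 0.226), and enalapril 2 and 3 were again the lowest. That probe passed, as the only one among the 10, with array weights (adjusted p = 0.0396) and with centring on E1A control probes (adjusted p = 0.0407), and in none of the other 17 alternatives that tested it. In those fits 8536 and 2654 of all 28586 tested probes passed, so a pass there is not particular to Cma1. The weights were largest for enalapril 2 (3.08) and smallest for enalapril 4 (0.24). With E1A control centring the median difference over all tested probes was −0.38.

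Mcpt4 encodes mMCP-4, the main chymotrypsin-like chymase of connective tissue mast cells in the mouse. Its brighter probe read 3.20, 2.12, 2.51 and 3.22 in enalapril, and 2.51, 3.1, 3.14 and 2.92 in vehicle. The values of enalapril 1 and 4 were the highest of all 8 mice, and that of enalapril 2 was the lowest. The means were 2.76 ± 0.54 in enalapril and 2.92 ± 0.29 in vehicle, and the difference of −0.15 ± 0.27 had a 95% interval of −0.76 to 0.46 (limma adjusted p = 0.741). The dimmer Mcpt4 probe read 1.91, 0.92, 1.35 and 1.87 in enalapril and 1.13, 1.71, 2.03 and 1.77 in vehicle, with a difference of −0.15 ± 0.26 (limma adjusted p = 0.751). The within-group SD of 0.43 was larger than the difference for both Mcpt4 probes.

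The mucosal chymases were at or near the floor of the array. Mcpt1, whose product mMCP-1 is released by mucosal mast cells, had processed intensities of 5.32, 109, 2.08 and 2.22 in enalapril, and 15.9, 10.2, 11.7 and 2.99 in vehicle. Only the 109 of enalapril 2 was well above background. Mcpt2 had 2.73, 34.6, 2.08 and 2.24 in enalapril, and 3.51, 4.03, 4.11 and 4.64 in vehicle, and again enalapril 2 alone was well above background. On the log2 scale relative to the 75th percentile the 2 probes stood at −3.02 and −4.67 in enalapril 2, where the lowest probe well above background was at −6.51. Both were therefore measured in 1 of 4 enalapril mice and 0 of 4 vehicle mice and were not tested. No fold change is given, because the enalapril mean rests on 3 mice not well above background. The neighbouring gene Mcpt9, named after its values were seen, was highest in the same mouse with an intensity of 10, between 2.17 and 2.87 in the other enalapril mice and between 3.11 and 4.41 in vehicle, but was well above background on no array. Enalapril 2 was also the mouse with the lowest Mcpt4 and Cma1 levels. Across the whole array 266 probes were well above background in enalapril 2 alone, and between 26 and 391 in each of the other mice alone. The chymase genes of the cluster are close relatives, and whether the probes of Mcpt1, Mcpt2 and Mcpt9 bind each other's transcripts was not tested.

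**Figure D2:**
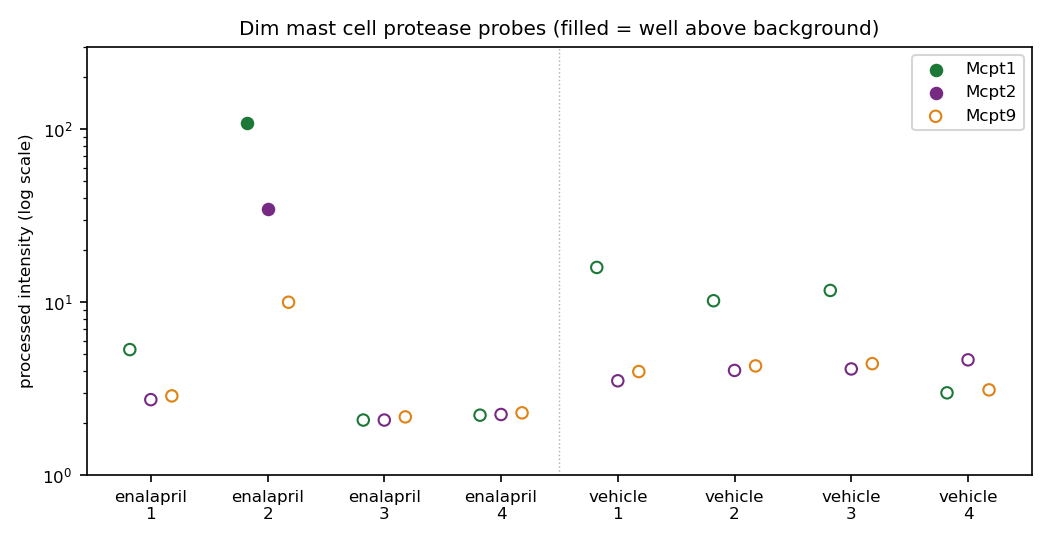
Processed intensity (log axis) of the probes of Mcpt1, Mcpt2 and Mcpt9 in each mouse, enalapril on the left; filled dots are well above background. Enalapril 2 holds the only filled dots, at 109 for Mcpt1 and 34.6 for Mcpt2.

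The tryptase gene Tpsb2 encodes mMCP-6, a granule tryptase held together by heparin. It read −0.05, −0.76, −0.58 and 0.03 in enalapril, and −0.76, −0.43, 0.12 and −0.07 in vehicle. The lowest values were those of enalapril 2 and vehicle 1, and the groups covered nearly the same range. The difference was −0.05 ± 0.24 (95% interval −0.60 to 0.50; limma adjusted p = 0.910). Tpsab1 encodes mMCP-7 and is annotated in the reference genome, as a transcribed pseudogene. Its probe read −2.37, −2.85, −3.35 and −2.98 in enalapril, and −2.99, −3.85, −1.93 and −2.29 in vehicle. Vehicle 2 was the lowest mouse and vehicle 3 the highest, so the vehicle mice spanned the whole range. The difference of −0.12 ± 0.40 had the widest interval of the 10 probes, −1.03 to 0.79 (limma adjusted p = 0.866). The 2 tryptases are close relatives, and whether either probe also reads the other transcript was not tested.

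Cpa3 encodes the carboxypeptidase stored with the chymases in the granule. It read 3.32, 2.25, 2.52 and 3.29 in enalapril, and 2.62, 3.03, 3.09 and 2.94 in vehicle. As for the brighter Mcpt4 probe, but not the dimmer one, the highest values were those of enalapril 1 and 4, and the lowest those of enalapril 2 and 3. The difference was −0.08 ± 0.26 (95% interval −0.66 to 0.51; limma adjusted p = 0.874). Hdc, the enzyme that makes histamine, read 1.26, 1.22, 0.97 and 1.61 in enalapril, and 1.14, 0.96, 1.22 and 1.19 in vehicle. It was the only one of the 10 probes with a difference above 0, at 0.14 ± 0.14 (95% interval −0.19 to 0.47; limma adjusted p = 0.558), and that sign turned with E1A control centring and in the deposited log2 values. Without enalapril 4 the difference was 0.024, and without enalapril 3 it was 0.24. Its within-group SD of 0.20 was close to the median of 0.22 over all tested probes.

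Ms4a2, the beta subunit of the high-affinity IgE receptor, read −4.06, −4.41, −4.23 and −4.40 in enalapril, and −4.33, −3.59, −4.18 and −3.91 in vehicle. The difference of −0.27 ± 0.17 (95% interval −0.66 to 0.12) did not pass (limma adjusted p = 0.332) and was −0.13 without vehicle 2. Mcpt8 read −4.45, −2.91, −3.86 and −3.79 in enalapril, and −2.59, −2.87, −3.56 and −3.81 in vehicle. Enalapril 1 was the lowest and vehicle 1 the highest mouse. Its difference was −0.55 ± 0.36 (95% interval −1.38 to 0.28; limma adjusted p = 0.350), beside a within-group SD of 0.60. Single mice moved it, to −0.32 without enalapril 1, −0.34 without vehicle 1 and −0.83 without enalapril 2.

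**Figure D3:**
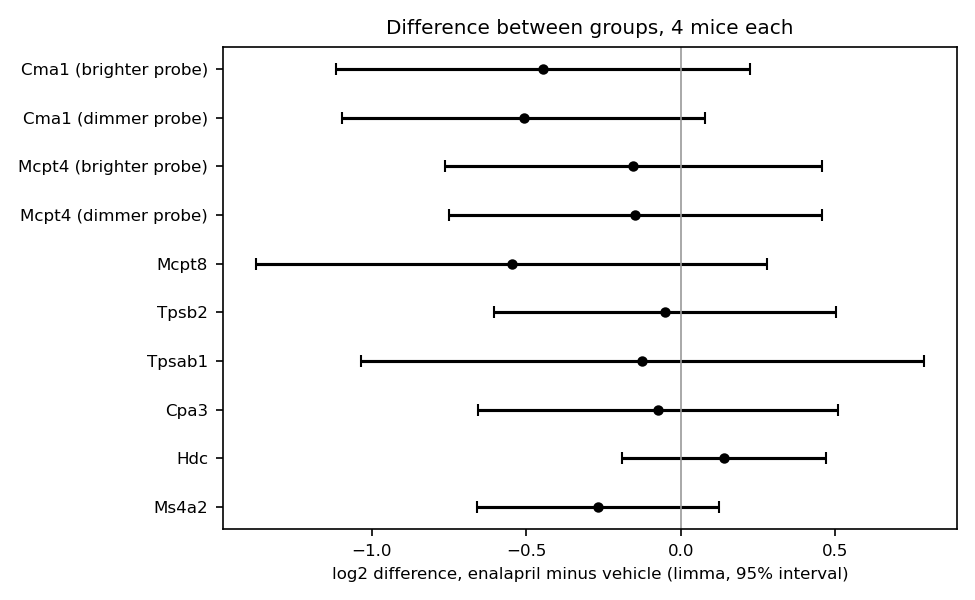
Difference in log2 level, enalapril minus vehicle, for the 10 tested probes with the 95% interval from limma (4 mice a group). Every interval crosses 0, and the points run from −0.55 for Mcpt8 to 0.14 for Hdc.

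Cma1, Mcpt4, Tpsb2 and Cpa3 varied together from mouse to mouse, while Tpsab1 and Mcpt8 did not follow them. When each probe was set to its own mean over the 8 arrays, Cma1, Mcpt4, Tpsb2 and Cpa3 averaged 0.34, −0.64, −0.38 and 0.31 in enalapril mice 1 to 4 and −0.33, 0.12, 0.38 and 0.21 in vehicle mice 1 to 4. Enalapril 2 and 3 and vehicle 1 were thus low for this group of genes, and enalapril 1 and 4 and vehicle 3 were high. Likeness was measured as the root mean square (RMS) difference between 2 such profiles over the 8 arrays, in log2 units, and is a description without a test. The 4 genes were picked from the 10 with earlier results of these data known, so the ranks below describe them and support nothing. Against the mean of the other 3 genes, the Mcpt4 probes had RMS differences of 0.090 and 0.101 and ranked 1 and 2 of 28582 probes. Cpa3 at 0.132 ranked 1 of 28581, Tpsb2 at 0.174 ranked 2, and the Cma1 probes at 0.204 and 0.219 ranked 13 and 22 of 28582. The median over all tested probes, against the mean of all 4 genes, was 0.450. The within-group SD of these probes lay between 0.39 and 0.48, higher than in 80.2% to 87.1% of all tested probes.

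The paired probes show how closely the arrays followed each gene. The brighter Cma1 probe stood between 1.67 and 1.92 above the dimmer one on all 8 arrays, and the brighter Mcpt4 probe between 1.11 and 1.39 above its partner. The span of Cma1 over the mice, 1.33 and 1.24 log2 units for the 2 probes, was several times that variation.

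The other measured members lay farther from the shared profile. Hdc and Ms4a2 had RMS differences of 0.341 and 0.351 from the shared profile and ranked 2189 and 3040 of 28586 probes. A probe that varies little over the mice also scores low by this measure. These ranks therefore do not show that Hdc or Ms4a2 shared the pattern. Tpsab1 at 0.541 ranked 20266 and Mcpt8 at 0.847 ranked 27037. Mcpt8 was highest in vehicle 1, vehicle 2 and enalapril 2. Vehicle 1 and enalapril 2 were low for the 4 proteases, while vehicle 2 was not. Enalapril 3, also low for the proteases, had Mcpt8 at −3.86.

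**Figure D4:**
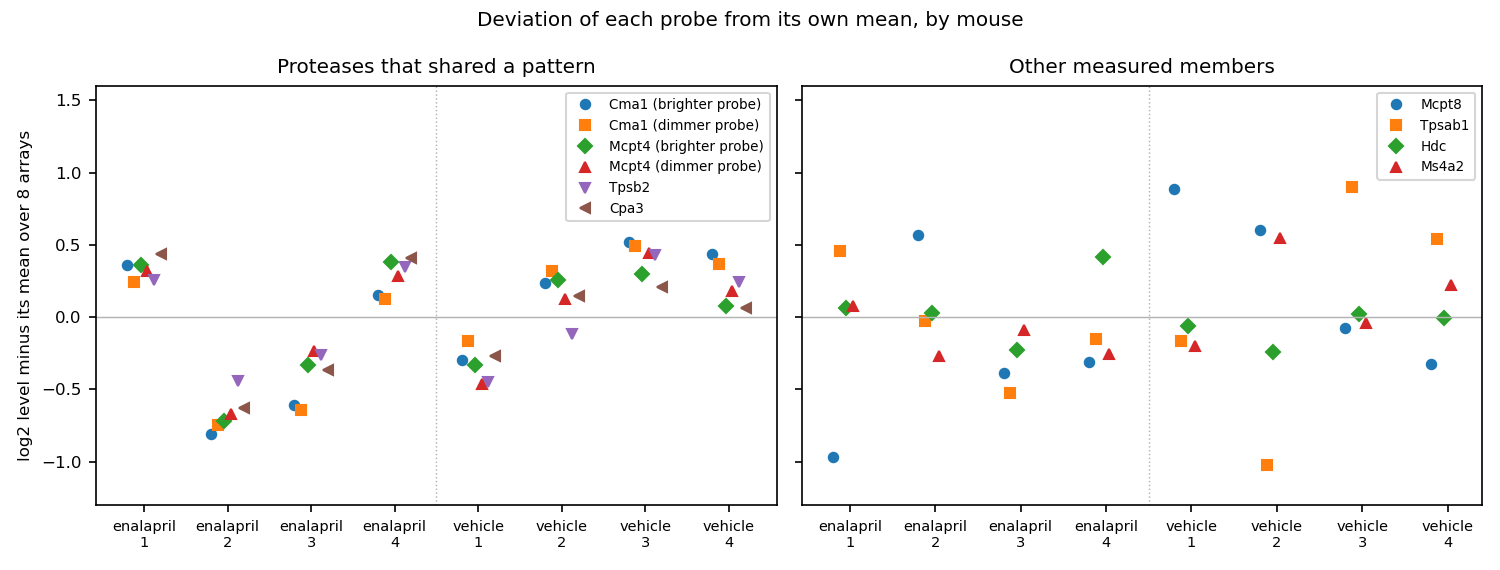
Log2 level of each probe minus its own mean over 8 arrays, by mouse, enalapril on the left of each panel. The 6 probes of Cma1, Mcpt4, Tpsb2 and Cpa3 (left panel) move together, with means from −0.64 in enalapril 2 to 0.38 in vehicle 3, while Mcpt8, Tpsab1, Hdc and Ms4a2 (right panel) lie farther from that profile, with RMS differences from 0.341 for Hdc to 0.847 for Mcpt8.

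Outside the 10 genes, the named gene closest to the shared profile was Tpsg1, a membrane-bound tryptase encoded beside Tpsb2, with an RMS difference of 0.135. It read −0.85, −1.46, −1.56 and −0.79 in enalapril, and −1.37, −0.80, −0.86 and −0.77 in vehicle. Next came Wars2, a mitochondrial tryptophan-tRNA synthetase gene (0.167), and Tph1, the enzyme that starts serotonin synthesis outside the brain (0.181). They were followed by Megf6 (0.186), Iqsec3 (0.193) and Golga5 (0.194). The last of the 8 were Cyp11a1, the cholesterol side-chain cleavage enzyme (0.198), and Gata1, a transcription factor of red cells and mast cells (0.206). With 28586 probes and 8 arrays, some genes come close to any profile. Another probe of Tph1 was dim, with means of −4.66 in enalapril and −4.68 in vehicle.

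Set against Mcpt4, Cpa3 and Tpsb2 of the same array, Cma1 stood lower in all 4 enalapril mice than in all 4 vehicle mice. The differences did not pass after adjustment, and the test below could not decide them. This comparison was chosen after the values were seen. Set against Tpsab1 or Mcpt8, by the levels given above, Cma1 had groups that overlapped. Taken singly, 20.2% of all tested probes had groups that did not overlap. The share for differences between pairs of genes was not computed, so the separation cannot be called particular to Cma1. The difference Cma1 minus Cpa3, on the log2 scale with a gene's probes averaged, was −0.25, −0.26, −0.38 and −0.38 in enalapril, and −0.08, 0.01, 0.18 and 0.23 in vehicle. All 4 enalapril mice lay below all 4 vehicle mice, and the group difference was −0.40. Only the change between groups has a meaning here, since a level of one probe is not comparable with that of another. Cma1 minus Mcpt4 was 0.51, 0.47, 0.21 and 0.36 in enalapril, and 0.72, 0.64, 0.68 and 0.83 in vehicle, a group difference of −0.33 without overlap. Cma1 minus Tpsb2 was 3.12, 2.75, 2.72 and 2.88 in enalapril, and 3.30, 3.48, 3.15 and 3.24 in vehicle, a group difference of −0.43, again without overlap.

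Each of these 3 differences had p = 0.0286 by a two-sided exact permutation test over the 70 splits of the mice, the smallest value that 4 against 4 allows. Groups of this size that do not overlap always give that value, and the pairs were compared after this was seen, so the p adds nothing to the values themselves. With 6 pairs of the 4 genes compared, the Benjamini-Hochberg adjusted value was 0.0571, so none passed after adjustment. With only these 3 of 6 pairs at the smallest p, no lower value was possible, so this failure decides nothing. The 3 pairs all share Cma1 and are not 3 separate results. The 3 pairs without Cma1 differed by −0.08, −0.10 and −0.02, with exact permutation p of 0.371, 0.514 and 0.83. Of the 8 pairings of a single Cma1 probe with a single probe of the other genes, 2 had overlapping groups. Leaving out each mouse in turn kept the 3 differences between −0.51 and −0.27. Quantile normalization moved Cma1 minus Tpsb2 to −0.27 with overlapping groups (exact permutation p = 0.114), and left p = 0.0286 for the other 2. Slide and treatment cannot be told apart here either.

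**Figure D5:**
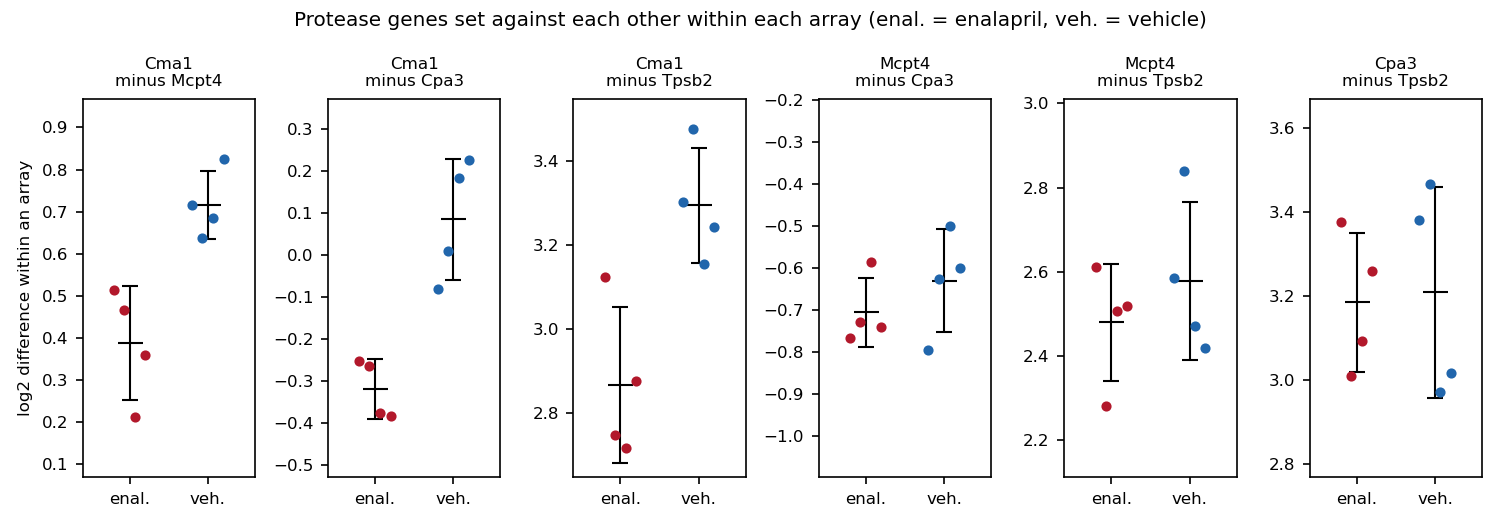
Log2 difference between 2 protease genes within each array; dots are mice, bars the mean ± SD of 4, and each panel spans the same number of log2 units. In the 3 panels with Cma1 all enalapril dots lie below all vehicle dots, with group differences of −0.33, −0.40 and −0.43; in the other 3 panels the dots overlap.

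Beyond the proteases, genes of mast cell biology were read from lists grouped by role, with the brightest probe standing for a gene. At that choice 11.6% of 19049 genes passed, 3.56% higher and 8% lower in enalapril, and the median difference over all genes was −0.08. With normexp background correction no probe on the array passed. With repaired normexp, in which the local background of 6 spots was replaced, 1988 passed, and Ltc4s, Maob, Alox5ap, Il4 and Agt kept their calls. Of 15 receptor and signalling genes 12 were tested and 0 passed as reported, with a median of −0.23. Kit differed by 0.11 ± 0.20 (limma adjusted p = 0.741), and Fcer1a, the IgE-binding subunit of the same receptor as Ms4a2, by −0.65 ± 0.32 (limma adjusted p = 0.216). Fcer1a passed with E1A control centring (−0.98, adjusted p = 0.0468) and was −0.41 without enalapril 3. Mrgprb2, the mouse receptor through which basic peptides and drugs activate mast cells, had the smallest p of that list. It read −2.97, −2.95, −3.36 and −2.94 in enalapril, and −2.91, −1.80, −2.46 and −2.05 in vehicle, all enalapril mice lying below all vehicle mice, and its −0.75 ± 0.23 did not pass (limma adjusted p = 0.0754). Mrgprb2 did pass with E1A control centring (−1.08, adjusted p = 0.0329), in the deposited log2 values (−1.11, adjusted p = 0.0369) and with array weights (−0.75, adjusted p = 0.0428), and with normexp its difference was −0.021. Of all 28586 tested probes, 2654 passed with E1A control centring, 1550 in the deposited log2 values and 8536 with array weights. The median difference over all tested probes was −0.38 with E1A control centring and −0.41 in the deposited log2 values. All 5 transcription factors listed were tested and 0 passed on the brightest probe, Stat5b being closest at −0.29 ± 0.11 (limma adjusted p = 0.138), and that probe passed with array weights (adjusted p = 0.0202). Another, dim probe of Stat5b, named after its values were seen, rose by 1.22 ± 0.31 (limma adjusted p = 0.0421).

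Of 14 genes of granule content and mediator synthesis, 3 fell and none rose, with a median of −0.22. Ltc4s, the leukotriene C4 synthase, read −0.97, −0.68, −0.88 and −0.17 in enalapril, and 0.33, 0.32, 0.27 and 0.11 in vehicle. It fell by 0.93 ± 0.17 (limma adjusted p = 0.0206). Alox5ap, the protein that presents arachidonic acid to 5-lipoxygenase, fell by 0.53 ± 0.12 (limma adjusted p = 0.0341). Maob, an amine-oxidising enzyme, fell by 0.57 ± 0.12 (limma adjusted p = 0.0299). For each of the 3, all vehicle mice, vehicle 1 included, were above all enalapril mice. These genes are also expressed outside mast cells, and which cells they came from was not tested. Left-out mice decided the calls: Ltc4s lost its call without enalapril 1, 2 or 3 or vehicle 1 or 2 (up to 0.0609), Maob without any mouse but enalapril 4 (up to 0.0800), and Alox5ap without any mouse but enalapril 4 (up to 0.0869). Alox5ap also lost its call with quantile normalization (−0.36, adjusted p = 0.0906), median centring (0.0527), the deposited log2 values (0.0731) and no filter on dim probes (0.0618). Maob also lost its call in the deposited log2 values (adjusted p = 0.0661) and with no filter on dim probes (0.0558). Ctsg, the cathepsin G gene of the same protease cluster, was at −0.58 ± 0.30 (limma adjusted p = 0.233) and passed with array weights (−0.84, adjusted p = 0.0397) and without vehicle 3 (−0.89, adjusted p = 0.0391).

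Of 8 further proteases of the chromosome 14 and 17 clusters, 5 had a probe and 3 were tested. Prss34, a protease gene of basophils and mast cells near the tryptases, differed by 0.85 ± 0.10 (limma adjusted p = 0.00922), on a dim probe. It read −4.97, −4.97, −4.84 and −5.04 in enalapril, all 4 well above background, and −5.64, −5.76, −5.93 and −5.90 in vehicle, where 1 of 4 was. It met the filter on dim probes only through the enalapril mice, so the test was bound to favour a difference, and it was not tested under the filter that asks for all 8 arrays. The call was lost with E1A control centring (0.52, adjusted p = 0.129), the deposited log2 values (0.49, adjusted p = 0.303), normexp (1.12, adjusted p = 0.497) and repaired normexp (0.43, adjusted p = 0.104). Of the 7 basophil markers Prss34 alone passed, with the same limit, and the median was −0.17.

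Among 11 factors that mast cells grow on or are drawn by, 9 were tested, 2 fell and none rose (median −0.18). Il4, the type 2 cytokine, read −2.53, −2.97, −2.95 and −2.82 in enalapril, and −2.19, −2.14, −1.90 and −1.77 in vehicle, and fell by 0.82 ± 0.14 (limma adjusted p = 0.0183). Tslp, an epithelial cytokine, fell by 0.71 ± 0.19 (limma adjusted p = 0.0491). Il4 lost its call without enalapril 2 or 3 (up to 0.0561), and Tslp without any mouse but enalapril 2 (up to 0.119). Tslp also lost its call with array weights (−0.42, adjusted p = 0.141), no filter on dim probes (0.0807) and repaired normexp (0.0592). Kitl, the stem cell factor that keeps mast cells alive, was at −0.03 ± 0.19 (limma adjusted p = 0.944). Of 5 histamine receptor and breakdown genes 4 were tested and 0 passed, with Hnmt, the histamine methyltransferase, closest at −0.45 ± 0.16 (limma adjusted p = 0.107). Hnmt passed with array weights (−0.52, adjusted p = 0.0150) and without enalapril 4 (−0.58, adjusted p = 0.0189).

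The angiotensin genes give the setting for the chymases. Of 18 genes that form, bind or break down angiotensins, 15 were tested, 1 fell and none rose (median −0.06). The precursor gene Agt was that one: it read 1.50, 0.79, 0.58 and 1.73 in enalapril and 2.16, 2.02, 2.29 and 2.10 in vehicle. The lowest Agt levels were in enalapril 2 and 3, also the lowest mice for Cma1, but the low vehicle mouse for Cma1, vehicle 1, was not low for Agt. Its fall of 1.00 ± 0.25 (limma adjusted p = 0.0409) kept its call with 1 mouse left out only without enalapril 4. Agt also lost its call with quantile normalization (adjusted p = 0.0591), median centring (0.0536) and no filter on dim probes (0.0702). Ace, which encodes the target of enalapril, was at 0.13 ± 0.12 (limma adjusted p = 0.498).

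Marker lists of other cell types were read in the same way. Of 6 macrophage, 6 T cell, 4 neutrophil, 3 eosinophil, 6 fibroblast, 6 keratinocyte and 4 endothelial genes tested, 0 passed in either direction, and 1 of 4 peripheral nerve genes was lower in enalapril. The summed macrophage level ran from 206.6 to 262.9 in enalapril and from 198.1 to 318.7 in vehicle, that of T cells from 2.84 to 4.59 in enalapril and from 4.19 to 4.74 in vehicle, and that of fibroblasts from 751.4 to 822.2 in enalapril and from 633.8 to 962.4 in vehicle. The summed keratinocyte level ran from 1091 to 1330 in enalapril and from 955 to 1628 in vehicle. The neutrophil range was 30.3 to 41.6 in enalapril and 20.8 to 60.2 in vehicle, and the eosinophil range 0.45 to 0.61 in enalapril and 0.53 to 0.67 in vehicle. The endothelial range was 3.30 to 3.82 in enalapril and 2.82 to 3.40 in vehicle, and the peripheral nerve range 1.97 to 2.19 in enalapril and 2.48 to 2.90 in vehicle. Their part in the mouse-to-mouse variation of the proteases was not tested.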

How the data were processed

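RNA of 8 dorsal skin samples was hybridised to 8 Agilent 1-colour (Cy3) arrays. The scanner files hold spot intensities that, per the file headers, Agilent Feature Extraction 9.1.3.1 background-subtracted and detrended within each array without scaling between arrays; the submitters' processing notes give version 9.1. The deposited series matrix holds log2 values, which equalled the log2 of that processed intensity. The deposited flags served as filters.

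Of 41174 probes on 43379 spots that are not controls, 47 were left out because outlier-flagged spots left no value on some array. Spots of a probe were averaged as log2 intensity minus the array's 75th percentile. Probes well above background on at least 4 of 8 arrays were tested with limma 3.58.1 (R 4.3.3; lmFit and eBayes, group as the only term, two-sided, Benjamini-Hochberg over every tested probe, called at an adjusted p under 0.05). The code was tested on simulated data. Names were updated through RefSeq GRCm38.p6 by accession (22951 probes), symbol (6659) or synonym (3096), and 8468 kept the name in the file. Promoter sequences are from RefSeq.

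All tested probes of the 10 genes are named; in each list those past the test, or else the smallest p, up to 4, plus Kit, Fcer1a, Ace, Agt, Ctsg and Kitl; and the 8 genes nearest the protease profile. The members and lists were chosen with earlier results of these data known. Replicate numbers did not pair the mice, since correlations of same-numbered deviations from the group means ran from −0.13 to 0.17. Per the labels the samples are biological replicates, and p-values measure the spread between these samples. Alternatives were normexp background correction (offset 50), quantile, median and E1A control centring, the series matrix values, other filters, 1 probe per gene, array weights, a robust fit with an intensity trend, a block for the replicate number, an adjusted p under 0.10 and each array left out. Repaired normexp, in which the local background of 6 spots exceeding 2 times the spot was replaced by the array's median, was chosen after seeing the data. Slide and scan could not be fitted as blocks.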

Additional observations from a re-analysis of the deposited data

Results flagged for a closer look

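Dixon's test for groups of 4 was applied to 56 groups of 4 mice, and chance alone marks about 1 in 20 groups. It marked 6, all in enalapril. Mcpt2 stood at −4.67 in enalapril 2 and between −8.63 and −8.61 in the other enalapril mice. Mcpt9 stood at −6.46 in enalapril 2 and between −8.58 and −8.54 in the others. Of these values only that of Mcpt2 in enalapril 2 was well above background. The other mice lay at the floor with almost no spread, so any raised value was bound to be marked. Mcpt9 was also named after its values were seen, so both marks say little beside the 1 in 20. Kit stood at −0.70 in enalapril 1 and between −1.31 and −1.21 in the others. Mrgprb2 stood at −3.36 in enalapril 3 and between −2.97 and −2.94 in the others. Stat5b stood at 1.98 in enalapril 4 and between 1.76 and 1.79 in the others, and Tslp at −1.39 in enalapril 2 and between −2.25 and −2.14 in the others. Mcpt1 in enalapril 2, given above, was just under the critical value.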

How the results depend on the processing

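Of 198 values of the 10 tested probes of the mast cell genes over 21 alternatives, 176 kept their direction and their side of the threshold, 20 turned sign without passing and 2 passed. The number of these probes called stayed at 0 except with E1A control centring and array weights, 1 each, both times Cma1. At an unadjusted p under 0.05 it was 4 and 2 in those fits, 3 in the series matrix values, and up to 1 with an array left out. Of all 28586 tested probes, 9558 met that limit with E1A control centring, 12405 with array weights and 7365 in the series matrix values. The count over all probes, 2981 as reported (36.6% higher in enalapril), was 0 with normexp (limma, 3144 at an unadjusted p under 0.05), 1988 with repaired normexp, 1983 with median centring, 1550 with the series matrix values (4.97% higher), 1392 with no filter on dim probes, 8536 with array weights, 38 with the replicate number as a block, and 396 to 6994 with 1 array left out. It was 2106 by quantile normalization (46.7% higher) and 2654 with E1A control centring (3.92% higher). The median difference over all tested probes was −0.05 as reported, −0.41 in the series matrix values, −0.38 with E1A control centring and 0.27 with normexp. The block ended the calls of Ltc4s (adjusted p = 0.0703), Maob (0.0770), Alox5ap (0.0760), Prss34 (0.0617), Il4 (0.0682), Tslp (0.0991) and Agt (0.0838) and called none of the mast cell probes; a block cannot move a difference in this balanced design, and the replicate numbers did not pair the mice.

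Signs turned, without a call, with normexp for Mcpt8 (0.36), Tpsb2 (0.016), Tpsab1 (0.42), Ms4a2 (0.69), Ctsg (0.41) and Kitl (0.21), with quantile normalization for Cpa3 (0.075), with E1A control centring for Hdc (−0.19), Kit (−0.22) and Ace (−0.20), with the series matrix values for Hdc (−0.23), Kit (−0.25) and Ace (−0.23), with array weights for Tpsab1 (0.094), and with repaired normexp for Ms4a2 (0.043). With 1 array left out, the differences ran as follows: Kit from −0.030 to 0.21, Mcpt4 (brighter probe) from −0.31 to 0.060, Mcpt4 (dimmer probe) from −0.32 to 0.051, Tpsb2 from −0.21 to 0.088, Cpa3 from −0.23 to 0.12, Kitl from −0.19 to 0.098, Tpsab1 from −0.49 to 0.15, Cma1 (brighter probe) from −0.64 to −0.25, Cma1 (dimmer probe) from −0.68 to −0.34, Mcpt8 from −0.83 to −0.32, Hdc from 0.024 to 0.24 and Ms4a2 from −0.38 to −0.13. The causes were not tested. For 6 of the 10 probes of the mast cell genes the reported difference is smaller than its standard error.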
